A study of Mus musculus with 7 samples.

Results

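Day 4 aggregates were compared with the day 0 stem cells they were made from, over all genes of a bulk RNA-seq series of mouse embryonic stem cell differentiation. The comparison uses 4 of the 7 libraries, chosen by the day in their labels: 2 of day 0 and 2 of day 4. The labels name the line Bry-GFP, which usually means that GFP was placed at Brachyury (gene symbol T). All groups share this line. On day 0 the cells were kept on a feeder layer of mouse embryonic fibroblasts, in 15% serum and 1000 U/mL of LIF, the cytokine that holds mouse stem cells in self-renewal. For day 4 they had left the feeders, serum and LIF. They spent 48 h as suspended aggregates (embryoid bodies) in serum-free medium at a seeding of 75000 cells per mL. A further 48 h followed with Noggin (150 ng/mL), which blocks BMP ligands, Wnt3a (25 ng/mL) and Activin A (9 ng/mL), a mix meant to induce primitive streak. The difference between the groups therefore holds every change of medium, substrate, factor and time at once, and these cannot be told apart. The labels call the replicates biological. The other 3 libraries, of days 2 and 6, were in the same fit. Those of day 2 added to the estimate of the spread between libraries, and the lone day 6 library did not. All 3 also had a part in which genes were tested and in the mean levels that the spread model used.

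Mouse embryonic stem cells in serum and LIF resemble the epiblast of the embryo before implantation, held by a network of naive pluripotency factors. When LIF is withdrawn they pass through a state like the post-implantation epiblast, from which Wnt and Nodal or Activin signals draw primitive streak, mesoderm and endoderm. Without those signals, and with BMP blocked, epiblast cells tend to become neural plate. Embryoid bodies are mixed, so that several of these fates can stand side by side in 1 RNA sample.

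The libraries were made from polyadenylated RNA with a strand-marking mRNA kit, per the labels. Levels are given as log2 of 1 plus scaled reads, and each pair of values is replicate 1 then replicate 2. From the height of a single read, as inferred from the values, the 4 libraries held roughly 3010000 to 5300000 reads. By the same inference a level below 1.45 to 2.298, depending on the library, stands for fewer than 3 reads. Replicates correlated at Pearson r = 0.975 on day 0 and 0.960 on day 4 and libraries of different days at 0.746 to 0.804, across 11800 genes, which are not independent replicates. Some exact zeros look unreliable, since 19 genes reached 5 or more in 1 library but 0 in its replicate, which can come from a failed estimate. Gapdh, a glycolysis enzyme that every cell uses, was 3.51 and 7.08 on day 4 against 6.19 and 7.13 on day 0. Genes at 0 in both libraries of a day are therefore called listed at 0 and are given no fold change. Where only 1 library of a day was at 0, a log2 change is given. For such genes the change in a fit without the other library of that day rests on the 0 alone. Fold changes of other genes are on the scale of 1 plus scaled reads, which understates the change of low genes.

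Markers of cells other than stem cells were readable in the day 0 libraries. The 14 markers of feeder fibroblasts summed to 20770 and 23760 scaled reads on day 0 and to 489 and 436.2 on day 4. All 14 were lower on day 4, and none was listed at 0 in both day 4 libraries. The 8 macrophage markers summed to 733.9 and 711.3 on day 0 and to 28.19 and 34.46 on day 4. Lyz2 (9.12 and 8.98 on day 0) made up most of the day 0 sums. Most of the day 4 sums came from Cd68 (4.335 and 4.875 on day 4), which did not pass the test described below. Of the 8 markers 4 (Ptprc, Adgre1, Tyrobp and Fcer1g) were listed at 0 in both day 4 libraries. The sources used here do not say whether feeders were taken off before the day 0 RNA was collected. In bulk RNA, fewer cells of a type and less RNA per cell cannot be told apart. These sums fell in the same libraries as every list of falls below, and their part in those falls was not tested. The stem cell markers were at high levels on day 0, with Pou5f1 (Oct4) at 11.34 and 11.40 and Nanog at 10.43 and 10.17, as the label says.

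Between day 0 and day 4, 4731 of 21813 genes (21.7%) passed the limma test at an adjusted p under 0.05. Of these 2458 were higher on day 4 (11.3%) and 2273 lower (10.4%). Among the 12873 genes with a mean of at least 10 scaled reads on either day, 4296 (33.4%) passed. Changes of at least 1 on the log2 scale were balanced, with 1769 genes higher (8.11%) and 1785 lower (8.18%). Changes of at least 4 were not: 122 genes were higher (0.559%) and 309 lower (1.42%). At the extreme, 25 genes listed at 0 in both day 0 libraries stood at 10 or more scaled reads in both day 4 libraries (0.115%), and 81 went the other way (0.371%). In 6635 genes (30.4%) both day 4 libraries lay above both day 0 libraries, and in 5868 (26.9%) both lay below. The median change over all genes tested was 0. It was 0.082 for genes whose level averaged log2 of 11 or more. The deposited libraries share almost the same sorted levels, as described below, which tends to force such a balance. Neither the balanced counts nor these medians can therefore show whether levels shifted as a whole. Without day 0 replicate 1 or 2 the test called 558 or 395 genes higher and 761 or 749 lower, and without day 4 replicate 1 or 2 it called 988 or 1198 higher and 784 or 1057 lower. The calls of 186 higher and 298 lower genes held without any 1 of the 4 libraries.

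**Figure D1:**
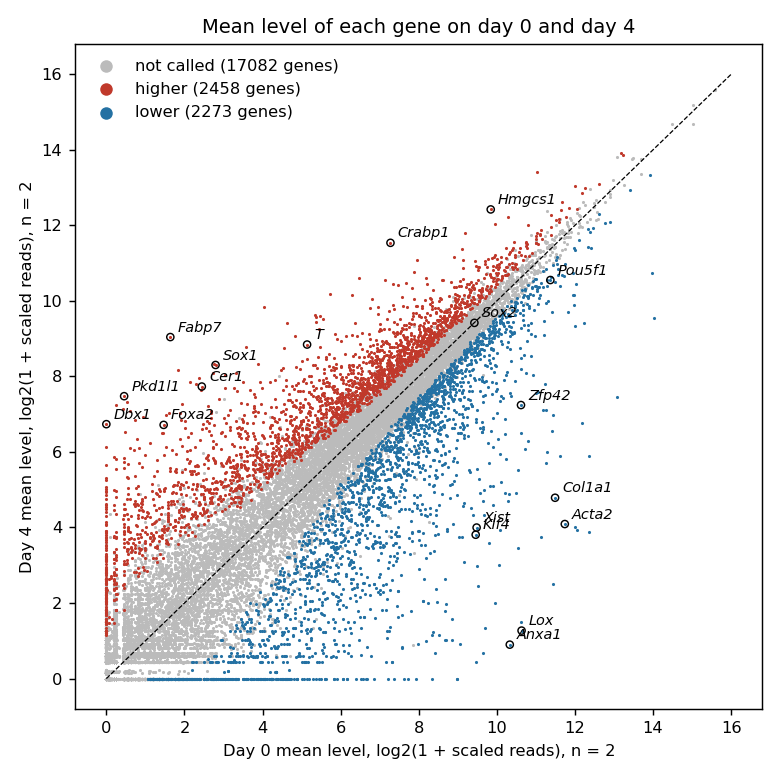
Mean level of each of 21813 genes on day 0 (x axis) and day 4 (y axis), both log2 of 1 plus scaled reads over 2 libraries, with the 2458 higher genes in red, the 2273 lower genes in blue and the rest in grey; the dashed line marks equal levels and circles mark named genes. The blue cloud reaches farther from the line than the red: Lox and Anxa1 have day 0 means of 10.63 and 10.33 and day 4 means of 1.27 and 0.90.

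Of the 12 largest rises, 3 stand on the list of neural progenitor genes described further on, 2 on that of neurons and 1 each on those of Notch and motile cilia. Fabp7, the fatty acid-binding protein of radial glia (chromosome 10, 57784881 to 57788450, plus strand), was 9.50 and 8.58 on day 4 against 2.77 and 0.51 on day 0 (log2 change 7.40, SE 0.70, adjusted p = 0.00108). Pkd1l1, a polycystin of the cilia that sense flow in the node (chromosome 11, 8826708 to 8973266, minus strand), was 8.01 and 6.94 on day 4 against 0.40 and 0.51 on day 0 (log2 change 7.02, SE 0.46, adjusted p = 0.000367). Aplnr, the receptor of apelin and Elabela (chromosome 2, 85136225 to 85139923, plus strand), was 7.52 and 6.94 on day 4 against 0 and 0.51 on day 0 (log2 change 6.98, SE 0.43, adjusted p = 0.000324). In each of these 3 genes both day 0 libraries were below 3 and both day 4 libraries far above. Dbx1, a homeobox gene of the mid-height neural tube (chromosome 7, 49631499 to 49636849, minus strand), was listed at 0 in each day 0 library but stood at 6.75 and 6.71 on day 4 (adjusted p = 0.000418). Pax3, a paired-box gene of the dorsal neural tube and neural crest, was 7.80 and 6.36 on day 4 against 1.22 and 0 on day 0 (log2 change 6.47, SE 0.61, adjusted p = 0.00108). Nhlh2, a helix-loop-helix factor of young neurons, was 8.27 and 6.38 on day 4 against 0 and 1.06 on day 0 (adjusted p = 0.00289), and Dcx, a microtubule protein of migrating neurons, was 9.25 and 7.09 on day 4 against 2.16 and 1.52 on day 0 (adjusted p = 0.00153). For both, day 4 replicate 1 was the higher of the pair. Zbtb16, a zinc-finger repressor, rose by 6.70, Pcdh8, a protocadherin of paraxial mesoderm and brain, by 6.11, Brsk2, a kinase of neuronal polarity, by 6.04 and Foxb1, a forkhead gene of the neural tube and hypothalamus, by 5.998. Hes5, the last of the 12, is described with the Notch genes. The call of Aplnr held without any 1 of the 4 libraries, and the other 11 were lost in at least 1 such fit. For Fabp7 the log2 change without day 0 replicate 1 or 2 was 8.53 or 6.27, for Pax3 7.08 or 5.86, for Pcdh8 6.83 or 5.38 and for Foxb1 6.93 or 5.06. For Pax3 the log2 change without day 4 replicate 1 or 2 was 5.75 or 7.20, for Nhlh2 5.85 or 7.74 and for Dcx 5.25 or 7.41.

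Of the 12 largest falls, Lox stands on the list of feeder fibroblast markers, Sdpr on that of caveolae, Ptgs2 on that of inflammatory mediators and Lyz2 on that of macrophages. Lox, the enzyme that cross-links collagen (chromosome 18, 52516067 to 52529867, minus strand), was 1.20 and 1.34 on day 4 against 10.58 and 10.68 on day 0 (log2 change -9.36, SE 0.34, adjusted p = 0.000107). Anxa1, a membrane-binding annexin (chromosome 19, 20373428 to 20390944, minus strand), was 0 and 1.80 on day 4 against 10.17 and 10.49 on day 0 (log2 change -9.43, SE 0.66, adjusted p = 0.000423). Bgn, the proteoglycan biglycan (chromosome X, 73483602 to 73495933, plus strand), was 3.77 and 3.98 on day 4 against 12.04 and 12.70 on day 0 (log2 change -8.49, SE 0.26, adjusted p = 0.000101). In all 3 the day 0 pair lay above 10 and the day 4 pair below 4. Matrix genes among the 12 also included Col12a1 (-9.13), Ltbp2, a binding protein of microfibrils (-9.05), and Col8a1 (-8.97). S100a6, a calcium-binding protein, was 1.83 and 3.20 on day 4 against 11.35 and 11.53 on day 0, and Emp1, an epithelial membrane protein, was 4.53 and 3.35 on day 4 against 11.97 and 12.12 on day 0. Sdpr, a coat protein of caveolae, and Ereg, an EGF-family ligand, went from 8.87 and 9.11 (Sdpr) and 8.44 and 8.22 (Ereg) on day 0 to a listed 0 in all day 4 values. Ptgs2, the inducible prostaglandin synthase, was 1.83 and 0.86 on day 4 against 9.93 and 9.46 on day 0, and Lyz2, the lysozyme of macrophages, was 1.83 and 0 on day 4 against 9.12 and 8.98 on day 0. The calls of Lox, Col12a1, Ltbp2, Sdpr, Bgn and Ereg held without any 1 of the 4 libraries. For Anxa1 the log2 change without day 4 replicate 1 or 2 was -8.53 or -10.33, for Col8a1 -8.30 or -9.64, for S100a6 -8.24 or -9.61, for Emp1 -8.69 or -7.51 and for Lyz2 -9.05 or -7.22.

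To see which programs these changes belong to, 47 gene lists were read. They held 540 tested genes, of which 142 were higher and 181 lower on day 4. The lists were drawn up with earlier results of these data known, so their counts describe the comparison and support nothing beyond it. The 3 lists with the highest medians were neuronal (3.81), neural progenitor (3.64) and axial mesoderm (3.42), and the 3 with the lowest were caveola (-5.32), feeder fibroblast (-5.17) and macrophage (-3.98). In 18 lists at least 1 member passed in each direction.

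**Figure D2:**
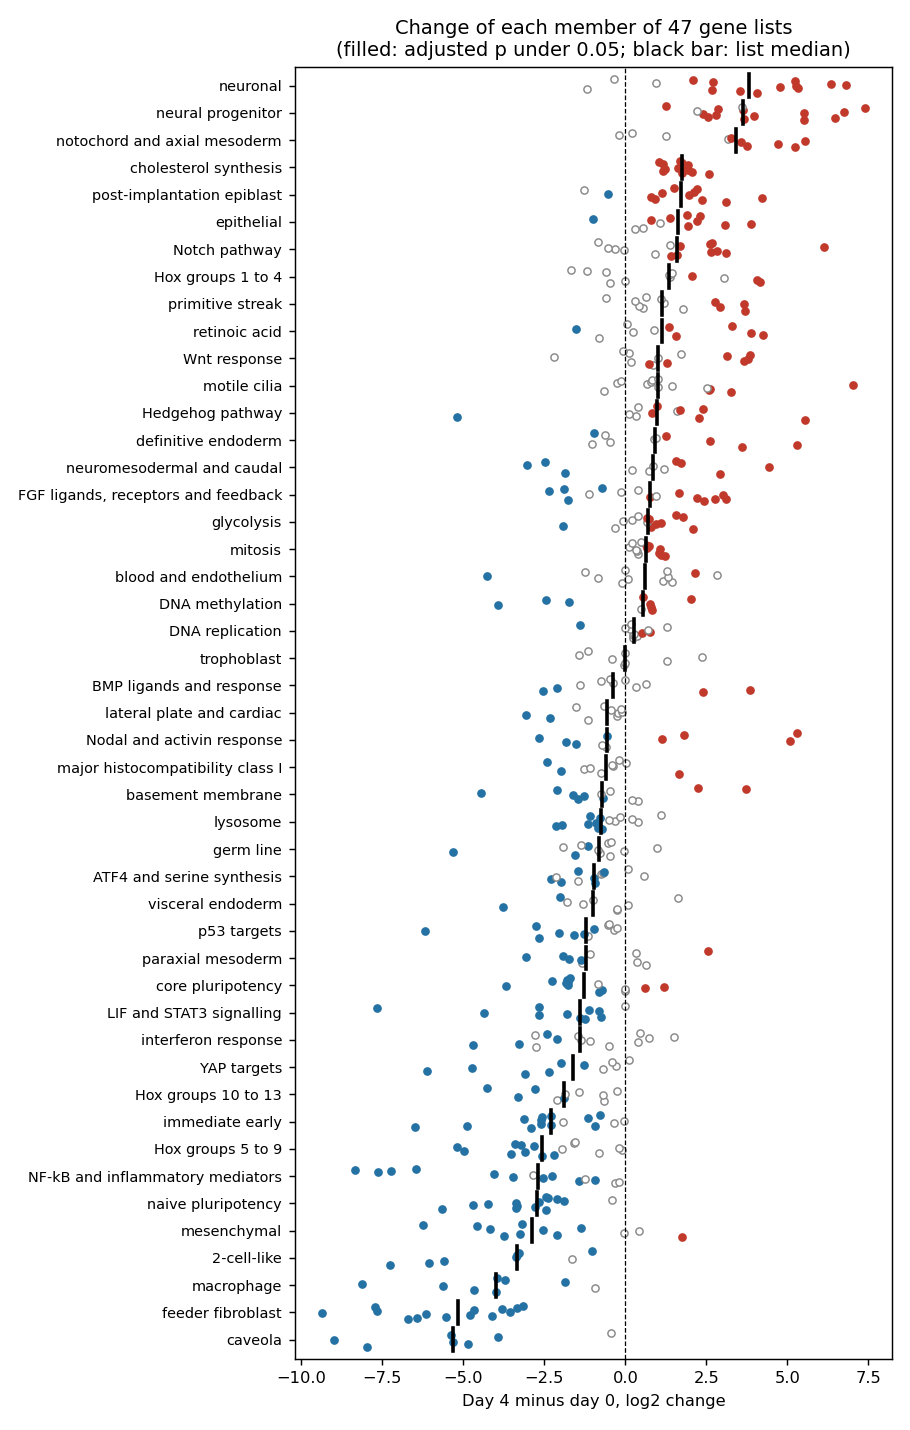
Log2 change from day 0 to day 4 (x axis) of each tested member of the 47 gene lists (rows, ordered by median), filled in red or blue where the adjusted p is under 0.05 and open otherwise; black bars mark list medians. Caveola, feeder fibroblast and macrophage genes lie at the bottom with medians of -5.32, -5.17 and -3.98, and neuronal and neural progenitor genes at the top with 3.81 and 3.64.

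Naive pluripotency genes fell and the core factors fell less. Of the 14 naive factors 13 fell, with a median of -2.72. Klf4, a factor of the naive network that LIF sustains (chromosome 4, 55527143 to 55532466, minus strand), was 3.73 and 3.89 on day 4 against 9.43 and 9.48 on day 0 (log2 change -5.65, SE 0.22, adjusted p = 0.000107), a 50.2-fold difference. Zfp42, known as Rex1 and a standard marker of naive cells, was 7.25 and 7.24 on day 4 against 10.69 and 10.54 on day 0 (log2 change -3.38, SE 0.15, adjusted p = 0.000141). Esrrb, a nuclear receptor of the naive network, was 7.64 and 7.48 on day 4 against 10.40 and 10.28 on day 0 (log2 change -2.78). Tbx3, a T-box factor, fell by 4.71 and Nr0b1, a nuclear receptor, fell by 4.24. The exception was Dppa3, a maternal factor also known as Stella, at 6.10 and 5.70 on day 4 against 6.61 and 5.99 on day 0 (adjusted p = 0.464). In all 13 that fell both day 4 libraries lay below both day 0 libraries, as in 26.9% of all genes. Feeder sums fell beside them, from 20770 and 23760 to 489 and 436.2. With 1 library left out, in the order day 0 replicate 1, day 0 replicate 2, day 4 replicate 1 and day 4 replicate 2, 4, 4, 9 and 9 of the 14 were called lower.

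In the core list 9 of 14 members fell and 2 rose, with a median of -1.27. Pou5f1, the gene of Oct4 (chromosome 17, 35506018 to 35510772, plus strand), was 10.46 and 10.64 on day 4 against 11.34 and 11.40 on day 0 (log2 change -0.82, SE 0.16, adjusted p = 0.0131). Nanog, a homeobox factor of the inner cell mass (chromosome 6, 122707489 to 122714633, plus strand), was 9.51 and 9.67 on day 4 against 10.43 and 10.17 on day 0 (log2 change -0.71, SE 0.13, adjusted p = 0.012). Sox2, which serves both pluripotent and neural cells, was 9.39 and 9.45 on day 4 against 9.64 and 9.21 on day 0 (adjusted p = 1), and its libraries overlapped. All 3 were thus still at high levels on day 4. The largest fall of the list was Dppa2 (-3.67), a chromatin factor of stem cells that was 5.05 and 5.40 on day 4 against 8.81 and 8.99 on day 0. Its partner Dppa4 fell by 1.78, Gdf3, a TGF-beta family ligand, fell by 2.26, and Tdgf1, the Nodal co-receptor Cripto, fell by 1.84. The members that rose were Lin28a (0.62, adjusted p = 0.00807) and Lin28b (1.18, adjusted p = 0.0112), RNA-binding proteins that block let-7 microRNAs. With 1 library left out, in the same order, 2, 2, 4 and 5 members were called lower and none higher. The calls of Pou5f1 and Nanog were lost in all 4 of these fits.

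Genes of the LIF receptor and its STAT3 effector fell in 10 of 11 cases, with a median of -1.39. Stat3 was 6.87 and 6.72 on day 4 against 9.31 and 9.60 on day 0 (log2 change -2.66, SE 0.18, adjusted p = 0.00037). The receptor chains Lifr and Il6st (gp130) fell by 1.25 and fell by 1.39. Socs3, a feedback inhibitor that STAT3 induces, fell by 1.79. Larger falls were in Osmr, the oncostatin M receptor (1.20 and 0.86 on day 4 against 8.65 and 8.74 on day 0), and Bcl3, a STAT3 target (1.20 and 1.26 on day 4 against 5.46 and 5.72 on day 0). Ptpn11, a phosphatase of the pathway, did not pass, at 9.63 and 9.56 on day 4 against 9.56 and 9.66 on day 0 (adjusted p = 0.983). In the left-out fits, in the same order, 3, 3, 4 and 5 members were called lower.

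The DNA methylation genes split by enzyme. Among the demethylating TET enzymes, Tet1 (9.48 and 9.44 on day 4 against 11.30 and 11.10 on day 0) and Tet2 (6.33 and 5.97 on day 4 against 8.66 and 8.56 on day 0) fell, by 1.74 and 2.46 on the log2 scale. Tet3, the TET enzyme of oocytes and differentiated cells, rose from 6.31 and 6.25 to 8.57 and 8.01 (2.01, adjusted p = 0.00159). Of the writers, Dnmt3l, a catalytically inactive cofactor, was 5.47 and 5.61 on day 4 against 9.16 and 9.80 on day 0 (log2 change -3.94, SE 0.24, adjusted p = 0.000323). Dnmt3b, the de novo enzyme of the epiblast, rose by 0.78, the maintenance enzyme Dnmt1 by 0.83 and its partner Uhrf1 by 0.75. Of the 9 genes 5 rose and 3 fell. Leaving out each library in turn gave 2, 2, 3 and 3 lower and 0, 0, 1 and 1 higher.

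Markers of the post-implantation epiblast rose in 10 of 12 cases, with a median of 1.73. Fgf5, the growth factor that defines this state (chromosome 5, 98254184 to 98277030, plus strand), was 8.42 and 8.63 on day 4 against 6.33 and 4.52 on day 0 (log2 change 3.10, SE 0.55, adjusted p = 0.0102). Sox3, a SoxB1 factor of epiblast and neural plate, was 7.09 and 6.68 on day 4 against 2.63 and 2.70 on day 0 (log2 change 4.22, SE 0.26, adjusted p = 0.000323). Otx2, a homeobox factor of the anterior epiblast, was 8.88 and 8.85 on day 4 against 7.03 and 5.96 on day 0 (log2 change 2.37). The day 4 replicates lay close together in all 3, and the day 0 replicates were apart in Fgf5 and Otx2. Fgf15 (2.21), the zinc-finger factor Sall2 (2.10), Zic2 (1.96) and the claudin Cldn6 (1.50) also rose. Of the other 2 members 1 fell. The last, the forkhead factor Foxd3, was 3.75 and 3.25 on day 4 against 4.72 and 4.81 on day 0 (adjusted p = 0.065). In the same 4 fits the test called 2, 2, 3 and 2 members higher. For Fgf5 the log2 change without day 0 replicate 1 or 2 was 3.998 or 2.19 and for Otx2 2.91 or 1.84.

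The 48 h with Wnt3a and Activin A were meant to induce primitive streak. Of 12 streak genes 4 rose, none fell, and the median was 1.14. The share called was 33.3%, beside 21.7% of all genes. It was near the 33.4% of genes with a mean of at least 10 scaled reads on either day. T, the Brachyury gene of streak and notochord (chromosome 17, 8434423 to 8442496, plus strand), was 9.02 and 8.67 on day 4 against 6.23 and 4.05 on day 0 (log2 change 3.70, SE 0.96, adjusted p = 0.037). Lhx1, a LIM homeobox gene of the anterior streak, was 7.48 and 7.05 on day 4 against 4.72 and 2.50 on day 0 (log2 change 3.65, adjusted p = 0.0114). Gsc, the organizer factor Goosecoid, was listed at 0 in each day 0 library but stood at 2.90 and 2.94 on day 4, only a little above the level of 3 reads (2.298 and 1.813). Fgf8, a ligand of the streak, was 5.51 and 4.99 on day 4 against 3.27 and 1.71 on day 0 (adjusted p = 0.0205). Eomes, a T-box factor of streak and endoderm, was 6.28 and 6.38 on day 4 against 6.51 and 5.06 on day 0 (adjusted p = 0.616), with overlapping libraries. Mixl1 was 3.45 and 4.63 on day 4 against 2.71 and 1.84 on day 0 (adjusted p = 0.0898), and Mesp1, a factor of nascent mesoderm, was 0 and 0.86 on day 4 against 0 and 0 on day 0, at or near 0 throughout. With each library left out, limma called 2, 1, 1 and 0 members higher. For T the log2 change without day 0 replicate 1 or 2 was 4.79 or 2.61, for Lhx1 4.77 or 2.54 and for Fgf8 3.55 or 1.99.

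Axial mesoderm, the tissue of node and notochord, had 6 of 10 listed genes higher, none lower and a median of 3.42. Foxa2, a forkhead factor of node, endoderm and floor plate (chromosome 2, 148042877 to 148046969, minus strand), was 6.66 and 6.78 on day 4 against 2.43 and 0.51 on day 0 (log2 change 5.25, SE 0.78, adjusted p = 0.00522). Noto, a homeobox gene of the node and notochord, was 5.79 and 4.13 on day 4 against 0 and 0.51 on day 0 (adjusted p = 0.00466). Shh, the Hedgehog ligand of notochord and floor plate, was 6.08 and 5.52 on day 4 against 0 and 0.51 on day 0 (adjusted p = 0.00756). All 3 were low on day 0 and clearly readable in both day 4 libraries. Chrd, the BMP inhibitor chordin, rose by 3.56 and Foxa1 by 3.76. Foxj1, the master regulator of motile cilia, which node cells bear, was 6.33 and 5.34 on day 4 against 2.63 and 2.50 on day 0 (log2 change 3.27, SE 0.54, adjusted p = 0.00738). In the list of motile cilia genes 4 of 14 rose (28.6%, against 21.7% of all genes called). Among genes with a mean of at least 10 scaled reads on either day 33.4% were called. The 4 were Foxj1, Pkd1l1, Dnah5, a dynein arm chain (2.62), and Rfx3, a ciliary transcription factor (2.57). The other 10 did not pass, among them the flagellar and airway genes Tekt1 (3.63 and 2.09 on day 4 against 3.05 and 2.93 on day 0) and Spag6 (2.998 and 1.99 on day 4 against 1.30 and 1.71 on day 0). Fst, the Activin inhibitor follistatin, was 8.40 and 8.63 on day 4 against 8.58 and 8.84 on day 0 (adjusted p = 0.423). Across the 4 left-out fits limma called 0, 0, 1 and 1 of the axial and 0, 0, 2 and 2 of the cilia genes higher. For Foxa2 the log2 change without day 0 replicate 1 or 2 was 6.21 or 4.29. For Noto the log2 change without day 4 replicate 1 or 2 was 3.87 or 5.54.

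Definitive endoderm genes rose in 4 of 10 cases and 1 fell, with a median of 0.92. Sox17, the endoderm factor of the Sox family (chromosome 1, 4490931 to 4497354, minus strand), was 5.69 and 5.74 on day 4 against 1.21 and 3.04 on day 0 (log2 change 3.59, SE 0.61, adjusted p = 0.00872). Cer1, the Nodal and BMP antagonist cerberus of anterior endoderm, was 7.76 and 7.70 on day 4 against 3.37 and 1.52 on day 0 (log2 change 5.29, SE 0.63, adjusted p = 0.00236). Cxcr4, a chemokine receptor of endoderm, was 7.24 and 6.57 on day 4 against 3.99 and 4.58 on day 0 (log2 change 2.62). The day 4 libraries agreed closely for Sox17 and Cer1, while the day 0 libraries did not. Gata4 (3.12 and 4.44 on day 4 against 4.38 and 5.25 on day 0) and Gata6 (3.61 and 4.69 on day 4 against 4.23 and 5.02 on day 0), factors of both extraembryonic and definitive endoderm, did not pass (adjusted p = 0.372 and 0.648). Kitl, the ligand of Kit, fell by 0.97. The left-out fits called 2, 1, 0 and 0 members higher. For Sox17 the log2 change without day 0 replicate 1 or 2 was 2.67 or 4.50 and for Cer1 6.21 or 4.36.

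Readouts of the added factors differed by pathway. Of 13 Wnt response genes 6 rose and none fell, with a median of 1.02. Sp8, a zinc-finger target of Wnt, was 7.46 and 7.48 on day 4 against 3.64 and 3.98 on day 0 (log2 change 3.66, SE 0.23, adjusted p = 0.000324), with the pairs far apart. Lgr5, an R-spondin receptor, was 5.59 and 5.38 on day 4 against 2.15 and 1.10 on day 0 (log2 change 3.86). Nkd1, an inhibitor that Wnt induces, rose by 3.77, Dkk1, a secreted inhibitor, by 3.13 and the effectors Tcf7 and Lef1 by 1.29 and 0.73. Axin2, the most used Wnt target, was 6.83 and 7.13 on day 4 against 5.82 and 6.45 on day 0 (log2 change 0.84, adjusted p = 0.0912), and Sp5 was 4.08 and 4.68 on day 4 against 5.07 and 3.32 on day 0 (adjusted p = 0.886). Neither passed. Leaving out each library in turn gave 1, 2, 1 and 1 members higher. For Dkk1 the log2 change without day 0 replicate 1 or 2 was 2.25 or 4.02.

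In the Nodal and Activin list 4 of 10 genes rose and 4 fell. Those that rose included Cer1, Cfc1 and Foxh1, the DNA-binding partner of the SMAD proteins (1.12). Cfc1, the co-receptor Cryptic, was listed at 0 in each day 0 library but stood at 5.83 and 4.31 on day 4, while its relative Tdgf1 went the other way (8.67 and 8.85 on day 4 against 10.70 and 10.50 on day 0). Smad7, an inhibitor that SMAD signalling induces, was 5.63 and 5.41 on day 4 against 8.06 and 8.28 on day 0 (log2 change -2.65, SE 0.20, adjusted p = 0.000523). Lefty2, a Nodal inhibitor and target, fell by 1.52, and Nodal itself was 6.75 and 6.92 on day 4 against 7.42 and 7.44 on day 0 (adjusted p = 0.0587). In the BMP list, whose ligands Noggin binds, Id1, a direct BMP target, was 4.92 and 5.25 on day 4 against 7.13 and 7.29 on day 0 (log2 change -2.12, adjusted p = 0.00257). Bmp4 was 3.89 and 3.87 on day 4 against 6.33 and 6.51 on day 0 and fell by 2.54, whereas Bmp2 (5.40 and 5.47 on day 4 against 3.02 and 3.04 on day 0) and Bmp7 (7.22 and 7.37 on day 4 against 4.04 and 2.83 on day 0) rose by 2.40 and 3.86. The other 7 BMP genes, among them Id2, Id4 and Smad6, did not pass. The 36.4% called was near the 33.4% of genes with a mean of at least 10 scaled reads on either day. Over all genes the share was 21.7%. In the same 4 fits the test called 1, 1, 1 and 2 Nodal genes lower and 2, 0, 0 and 0 higher, and 0, 0, 1 and 1 BMP genes lower and 2, 0, 1 and 1 higher. For Bmp7 the log2 change without day 0 replicate 1 or 2 was 4.47 or 3.25.

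Neural progenitor genes rose in 13 of 15 cases, with a median of 3.64. Sox1, the earliest specific factor of the neural plate (chromosome 8, 12395295 to 12400126, plus strand), was 8.38 and 8.23 on day 4 against 2.95 and 2.64 on day 0 (log2 change 5.51, SE 0.26, adjusted p = 0.000154), a 45.4-fold difference. Pax6, a paired-box factor of the neural tube and eye (chromosome 2, 105668900 to 105697364, plus strand), was 7.38 and 6.91 on day 4 against 4.76 and 4.43 on day 0 (log2 change 2.55, SE 0.26, adjusted p = 0.00135). Nes, the intermediate filament nestin, was 10.22 and 10.17 on day 4 against 9.01 and 8.86 on day 0 and so readable from the start (1.26). The genes that pattern the neural tube from back to belly rose across its height. Dorsal genes that rose were Pax3, Pax7 (7.08 and 6.37 on day 4 against 3.02 and 2.50 on day 0), Zic1 (2.80) and Olig3 (3.64). Genes of the middle were Dbx1 and Irx3 (2.40), and ventral ones were Nkx6-1 (6.13 and 6.09 on day 4 against 1.22 and 0 on day 0) and Nkx2-2 (3.18 and 2.94 on day 4 against 0.40 and 0 on day 0), with the latter low on day 4. Pax2, a factor of midbrain, kidney and spinal interneurons, was listed at 0 in each day 0 library but stood at 3.87 and 3.45 on day 4. Olig2 was 1.83 and 2.61 on day 4 against 0 and 0 on day 0 and did not pass (adjusted p = 0.0754). Pou3f2 did not pass either (8.30 and 7.72 on day 4 against 1.77 and 7.05 on day 0, adjusted p = 0.141). Its day 0 replicate 2 lay somewhat below both day 4 libraries and replicate 1 far below them. With each library left out, limma called 5, 4, 5 and 7 members higher. For Nkx6-1 the log2 change without day 0 replicate 1 or 2 was 6.11 or 4.89.

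Genes of neurons rose in 11 of 14 cases, with a median of 3.81. Proneural factors, which commit progenitors to the neuronal path, included 3 genes that were listed at 0 on day 0. Neurog1 was listed at 0 in each day 0 library but stood at 3.87 and 4.26 on day 4, Neurog2 rose from the same listed 0 to 3.45 and 3.65, and Neurod4 to 5.33 and 5.30. Later genes included Nhlh1 (6.63 and 5.56 on day 4 against 0.40 and 1.26 on day 0) and the RNA-binding proteins Elavl4 (8.12 and 7.17 on day 4 against 2.02 and 2.81 on day 0) and Elavl3 (2.70). Isl1, a LIM factor of motor and sensory neurons, is 1 of the 11 called but is not read as a difference: it was listed at 0 on day 0 and at 2.01 and 2.19 on day 4, where 3 reads stand at 2.298 and 1.813. Tubb3, the neuronal tubulin, was 9.21 and 7.38 on day 4 against 7.29 and 7.44 on day 0 (adjusted p = 0.331), with only day 4 replicate 1 above day 0. Stmn2 (9.41 and 9.44 on day 4 against 9.92 and 9.63 on day 0) and Neurod1 (4.52 and 4.68 on day 4 against 5.90 and 5.64 on day 0) did not pass and were readable on day 0 already. Day 4 replicate 1 exceeded replicate 2 by more than 1 on the log2 scale for Nhlh1, Nhlh2, Dcx, Elavl3 and Tubb3. Across the 4 left-out fits limma called 3, 3, 5 and 7 members higher. For Elavl3 the log2 change without day 4 replicate 1 or 2 was 2.06 or 3.33.

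The Notch pathway, by which a differentiating cell holds back its neighbours, had 9 of 15 genes higher and none lower, with a median of 1.58. Hes5 and Lfng are shown by their promoters because Hes5 is among the 12 largest rises and both hold GTGGGAA, the letters bound by the Notch effector RBPJ. The sequences are the 250 bases before the start, 5′ to 3′ on the gene's strand, from RefSeq on GRCm38.p6. Capitals mark GTGGGAA or, on the other strand, TTCCCAC.
Hes5 (chr4:154960673-154960922, plus strand): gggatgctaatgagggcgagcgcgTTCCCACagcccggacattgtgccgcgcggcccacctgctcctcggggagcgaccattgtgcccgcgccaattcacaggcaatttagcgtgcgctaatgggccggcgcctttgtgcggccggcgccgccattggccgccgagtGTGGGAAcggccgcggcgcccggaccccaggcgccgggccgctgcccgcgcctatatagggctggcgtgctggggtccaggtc
Lfng (chr5:140607091-140607340, plus strand): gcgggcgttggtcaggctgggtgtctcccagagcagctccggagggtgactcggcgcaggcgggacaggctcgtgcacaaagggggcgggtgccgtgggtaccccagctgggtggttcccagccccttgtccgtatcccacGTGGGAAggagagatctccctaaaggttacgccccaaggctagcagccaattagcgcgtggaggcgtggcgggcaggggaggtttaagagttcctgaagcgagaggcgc
GTGGGAA was present on either strand in 5.42% of 32851 promoters of this length and in 3 of the 12 Notch list members with a promoter entry (Hes5, Hey2 and Lfng). The percentage is over single promoters, while a list member counted where any of its promoter entries matched, so these are unlike measures. No match overlapped another. A match describes letters only, and binding was not measured. Hes5, a repressor that Notch induces in neural progenitors, was listed at 0 in each day 0 library but stood at 6.36 and 5.90 on day 4 (adjusted p = 0.00151). Lfng, a sugar transferase that tunes the receptor, was 5.72 and 5.53 on day 4 against 3.02 and 2.97 on day 0 (log2 change 2.63, SE 0.33, adjusted p = 0.0025). Hey2, a related repressor, was 3.61 and 3.99 on day 4 against 1.81 and 3.04 on day 0 and did not pass (adjusted p = 0.133). Among ligands Dll1 (7.73 and 7.09 on day 4 against 3.65 and 4.98 on day 0), Dll3 (2.65) and Dll4 (2.84) rose, while Jag1 (7.84 and 7.79 on day 4 against 7.78 and 7.95 on day 0) and Jag2 (4.92 and 4.99 on day 4 against 5.22 and 5.33 on day 0) did not pass. Among receptors Notch1 (1.42) and Notch2 (1.58) rose and Notch3 did not pass (0.90, adjusted p = 0.0854). Hes1, a target shared with other pathways, was 7.86 and 7.91 on day 4 against 8.38 and 8.45 on day 0 (adjusted p = 0.135). The left-out fits called 2, 0, 1 and 2 members higher. For Dll1 the log2 change without day 0 replicate 1 or 2 was 2.43 or 3.76 and for Dll4 2.21 or 3.47.

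Hedgehog genes rose in 6 of 11 cases and 1 fell, with a median of 0.97. Ptch1, both receptor and target of the pathway, was 11.51 and 10.79 on day 4 against 8.99 and 8.79 on day 0 (log2 change 2.26, SE 0.25, adjusted p = 0.00191). Smo, the signal transducer, rose by 1.70, and the co-receptors Boc and Gas1 rose by 2.38 and 0.96. Gli1, a direct target, was 7.49 and 7.13 on day 4 against 7.17 and 6.81 on day 0 and did not pass (adjusted p = 0.651). The libraries of Ptch1 lay apart, and those of Gli1 overlapped. In the FGF list 7 of 15 genes rose and 4 fell. Fgf4, the ligand of stem cells, was 5.83 and 6.73 on day 4 against 8.06 and 8.06 on day 0 (-1.78), whereas Fgf5, Fgf15, Fgf8 and Fgf3 (2.44) rose. Etv4, Etv5 and Spry4, which FGF signalling induces, fell by 1.91, 0.72 and 2.35, while Spry1 rose by 1.67 and Dusp6 was 8.96 and 8.88 on day 4 against 8.83 and 8.26 on day 0 (adjusted p = 0.29). Fgfr1 passed at the margin (0.75, adjusted p = 0.0497) and was not called when levels were centred on the median. In each fit without 1 of the 4 libraries, fewer Hedgehog and FGF genes were called higher, and fewer FGF genes lower. The Hedgehog list still had a call lower in every such fit. The Hedgehog gene that fell is not reported here by name. For Boc the log2 change without day 4 replicate 1 or 2 was 1.76 or 3.01.

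Retinoic acid genes and Hox genes were read for position along the body axis. Crabp1, a retinoic acid-binding protein (chromosome 9, 54764748 to 54773110, plus strand), was 11.78 and 11.29 on day 4 against 7.34 and 7.21 on day 0 (log2 change 4.26, SE 0.30, adjusted p = 0.000419). Crabp2 was 10.11 and 10.22 on day 4 against 6.25 and 6.33 on day 0 (log2 change 3.88), and Stra6, a receptor that takes up retinol, rose by 3.30. Aldh1a2, which makes retinoic acid, was 2.64 and 3.99 on day 4 against 3.76 and 4.49 on day 0 (adjusted p = 0.427), and Rarg, a receptor, fell by 1.51. In all, 5 of 10 rose and 1 fell. Of the 12 Hox genes of groups 1 to 4, which pattern hindbrain and neck, 3 rose and none fell. The 25.0% called was near the 21.7% of all genes called. The 3 were Hoxb1 (6.03 and 5.88 on day 4 against 1.23 and 2.35 on day 0), Hoxa2 (6.84 and 6.41 on day 4 against 2.22 and 2.90 on day 0) and Hoxb3 (6.76 and 6.77 on day 4 against 4.95 and 4.48 on day 0). None of the 15 genes of groups 5 to 9, which pattern the trunk, rose and 9 fell, with a median of -2.56. Hoxc8 was 1.48 and 0 on day 4 against 5.84 and 6.02 on day 0, Hoxc6 was 0 and 1.81 on day 4 against 5.43 and 6.33 on day 0 and Hoxb9 was 2.49 and 4.67 on day 4 against 6.76 and 7.24 on day 0. In groups 10 to 13, of the lower trunk and limbs, 4 of 10 fell, with a median of -1.88. The 40.0% called stood beside 21.7% of all genes and 33.4% of those with a mean of at least 10 scaled reads on either day. Among the 4 were Hoxd13 (0 and 1.34 on day 4 against 4.84 and 5.02 on day 0) and Hoxa11 (3.75 and 2.86, then listed at 0 in both). Feeder markers fell in the same libraries, at sums of 20770 and 23760 against 489 and 436.2, and their part in the Hox falls was not tested. No source used here says whether reads were counted by strand, so Hox genes may share reads with antisense neighbours. In the same 4 fits the test called 2, 2, 1 and 3 of groups 1 to 4 higher and, as lower, 0, 0, 3 and 5 of groups 5 to 9 and 1, 1, 1 and 2 of groups 10 to 13. Of the retinoic acid genes they called 0, 0, 0 and 1 higher. For Hoxc8 the log2 change without day 4 replicate 1 or 2 was -5.93 or -4.45, for Hoxc6 -4.07 or -5.88, for Hoxb9 -2.33 or -4.50 and for Hoxd13 -3.59 or -4.93.

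**Figure D3:**
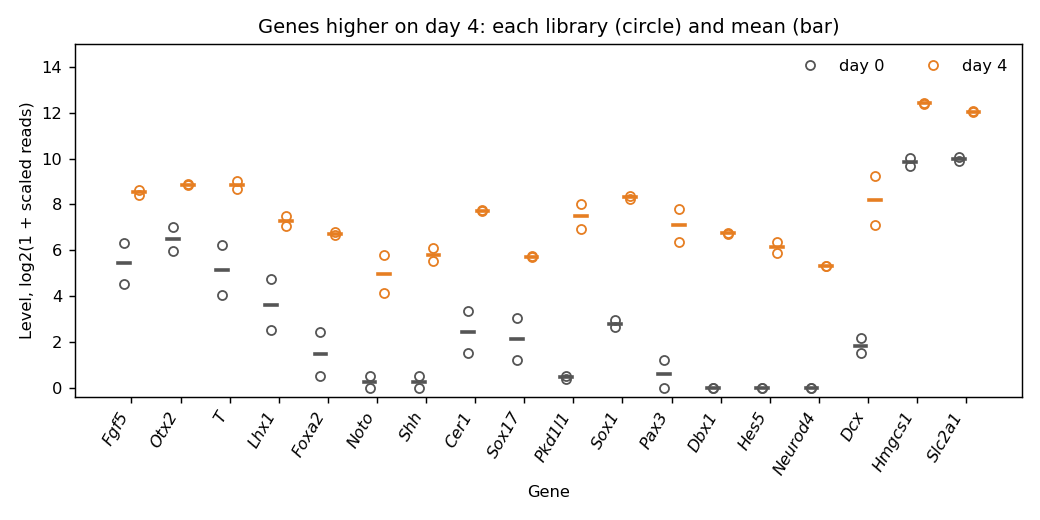
Level of 18 genes (x axis) that were higher on day 4, as log2 of 1 plus scaled reads (y axis), with each library as an open circle (grey day 0, orange day 4) and the mean of each day as a bar. Dbx1, Hes5 and Neurod4 are listed at 0 in both day 0 libraries, while Hmgcs1 and Slc2a1 start near 9.84 and 9.96.

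Epithelial genes rose and mesenchymal genes fell, with exceptions on both sides. Of 12 epithelial genes 8 rose and 1, Grhl2, fell by 1.01, with a median of 1.64. Krt18, a keratin of simple epithelia, was 8.99 and 8.99 on day 4 against 6.61 and 5.21 on day 0 (log2 change 3.08, SE 0.41, adjusted p = 0.00361), and its partner Krt8 was 8.51 and 8.54 on day 4 against 7.27 and 5.94 on day 0 (1.92). The tight junction genes Cldn7 and Tjp3 rose by 2.21 and 1.90. Cdh1, the epithelial cadherin, was 10.67 and 11.09 on day 4 against 10.74 and 10.44 on day 0 (adjusted p = 0.303), with overlapping libraries at a high level. Cdh2, the cadherin of neural and mesodermal cells (chromosome 18, 16588877 to 16809246, minus strand), was 10.24 and 9.88 on day 4 against 8.22 and 8.39 on day 0 (log2 change 1.75, SE 0.23, adjusted p = 0.00311). It was the 1 member of the 12 mesenchymal genes that rose, and 9 fell, with a median of -2.87. Prrx1, a homeobox gene of mesenchyme, was 4.12 and 3.03 on day 4 against 9.71 and 9.90 on day 0 (-6.23), and Fn1, fibronectin, was 10.91 and 10.55 on day 4 against 13.87 and 14.08 on day 0 (-3.24). Vim fell by 2.09 and Snai2 fell by 4.18, while Zeb1 and Zeb2 did not pass. The feeder sums went from 20770 and 23760 to 489 and 436.2 in the same libraries, and their part in the mesenchymal falls was not tested. With each library left out, limma called 1, 1, 0 and 0 epithelial genes higher and 0, 0, 2 and 3 mesenchymal genes lower. For Krt18 the log2 change without day 0 replicate 1 or 2 was 3.78 or 2.39 and for Krt8 2.59 or 1.25.

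Basement membrane genes went both ways, with 6 of 12 lower and 2 higher. Nid1, the linker protein nidogen, was 6.82 and 7.14 on day 4 against 11.28 and 11.60 on day 0 (log2 change -4.46, SE 0.19, adjusted p = 0.000141). The type IV collagen chains Col4a1 and Col4a2 fell by 1.27 and 1.62, Hspg2, perlecan, fell by 2.12, and the laminin chains Lamb1 and Lamc1 fell by 1.46 and 0.69. Fras1, an anchoring protein of embryonic epithelia, was 7.71 and 7.70 on day 4 against 4.23 and 3.75 on day 0 (log2 change 3.71, SE 0.22, adjusted p = 0.00032), and its partner Frem2 rose by 2.24. Lama1 and Lama5 did not pass. The calls of Nid1 and Fras1 held without any 1 of the 4 libraries, and those of the other 6 were lost in at least 1 such fit. For Frem2 the log2 change without day 0 replicate 1 or 2 was 2.87 or 1.61.

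Every gene of the cholesterol synthesis list rose, 14 of 14, with a median of 1.75. The promoters of Hmgcs1 and Cyp51 are shown because the whole list moved 1 way and this pathway is known to be driven by SREBP2 with NF-Y. They are the 250 bases before the start on GRCm38.p6, from RefSeq, 5′ to 3′ on the gene's strand, and capitals mark the NF-Y letters CCAAT or, on the other strand, ATTGG, and the sterol element TCACNCCAC.
Hmgcs1 (chr13:119690101-119690350, plus strand): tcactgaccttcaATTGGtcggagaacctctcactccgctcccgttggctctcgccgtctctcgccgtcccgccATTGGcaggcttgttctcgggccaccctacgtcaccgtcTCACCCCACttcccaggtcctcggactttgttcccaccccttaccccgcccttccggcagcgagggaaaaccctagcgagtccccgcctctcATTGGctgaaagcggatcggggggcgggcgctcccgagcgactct
Cyp51 (chr5:4104698-4104947, minus strand): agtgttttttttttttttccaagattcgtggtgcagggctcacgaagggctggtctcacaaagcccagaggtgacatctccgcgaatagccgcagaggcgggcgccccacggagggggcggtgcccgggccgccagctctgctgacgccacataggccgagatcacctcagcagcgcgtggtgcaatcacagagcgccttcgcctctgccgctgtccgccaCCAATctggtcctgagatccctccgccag
CCAAT was present on either strand in 33.8% of 32851 promoters of this length and in 8 of the 8 list members with an entry. TCACNCCAC was present in 1.05% of promoters and in 1 of the 8, Hmgcs1. Matches did not overlap. The percentages are over single promoters, while a list member counted where any of its promoter entries matched, so these are unlike measures. A match describes letters only, and binding was not measured. Hmgcs1, which makes HMG-CoA (chromosome 13, 119690379 to 119708260, plus strand), was 12.40 and 12.44 on day 4 against 10.004 and 9.68 on day 0 (log2 change 2.58, SE 0.12, adjusted p = 0.000154). Cyp51, the lanosterol demethylase, was 9.68 and 10.04 on day 4 against 8.20 and 7.96 on day 0 (log2 change 1.78). In all 14 both day 4 libraries lay above both day 0 libraries, as in 30.4% of all genes. Mvd (2.07), Fdps (1.93), Dhcr7 (1.94), Lss (1.76) and Sqle (1.61) are enzymes further along, Insig1 (1.74) is the sterol sensor partner and Srebf2 (1.68) the gene of SREBP2. Serum was in the medium on day 0 and absent on day 4, and its part cannot be told apart from the other changes of medium. Across the 4 left-out fits limma called 6, 3, 8 and 8 of the 14 higher.

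Glycolysis genes rose in 8 of 14 cases and 1 fell, with a median of 0.70. Slc2a1, the glucose transporter GLUT1 (chromosome 4, 119108711 to 119137983, plus strand), was 12.02 and 12.06 on day 4 against 10.05 and 9.87 on day 0 (log2 change 2.08, SE 0.21, adjusted p = 0.00127). Slc16a3, which exports lactate, was 8.81 and 9.02 on day 4 against 7.47 and 6.79 on day 0 (1.79). The enzymes Tpi1 and Aldoa rose by 1.11 and 0.95, and Ldha and Pkm by 0.67 and 0.74. Pfkp, a phosphofructokinase, was 6.45 and 7.003 on day 4 against 8.81 and 8.47 on day 0 and fell by 1.92. Pgam1 and Eno1 did not pass, nor did Gapdh with its uneven values. Mitosis genes rose in 7 of 13 cases, with a median of 0.64 and none lower. Mki67, the proliferation marker, was 11.32 and 11.02 on day 4 against 10.14 and 9.73 on day 0 (log2 change 1.23, SE 0.17, adjusted p = 0.00417), and Bub1 (1.09), Aurkb (1.08) and Cenpf (1.03) also rose. Ccnb1 did not pass (log2 change 0.11, adjusted p = 0.517). Of 12 replication genes 3 were called (25.0%), near the 21.7% of all genes, and 9 did not pass. Mcm6 (0.51) and Mcm7 (0.77) rose, and Ccne1, cyclin E of the start of S phase, fell by 1.40 (8.32 and 8.66 on day 4 against 9.91 and 9.87 on day 0). Feeder markers fell in the same libraries, and their part in these rises was not tested. The left-out fits called 1, 0, 0 and 0 glycolysis genes, 1, 0, 0 and 1 mitosis genes and 0, 0, 0 and 0 replication genes higher.

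Stress-related lists fell. Of 12 p53 target genes 7 fell, with a median of -1.21. Cdkn1a, the cell cycle inhibitor p21, was 7.87 and 8.29 on day 4 against 10.61 and 10.91 on day 0 (log2 change -2.68, SE 0.18, adjusted p = 0.000394), and Ccng1, cyclin G1, was 10.23 and 10.66 on day 4 against 11.83 and 12.24 on day 0 (-1.59). Fas, a death receptor, was at 6.12 and 6.22 on day 0 and listed at 0 in both day 4 libraries. Bax and Zmat3 did not pass. Of 15 immediate early genes 12 fell, with a median of -2.30. Fosb, a part of AP-1, was 2.30 and 3.66 on day 4 against 10.09 and 8.87 on day 0 (log2 change -6.50, SE 0.72, adjusted p = 0.00188), Egr1 was 7.08 and 7.91 on day 4 against 10.62 and 9.59 on day 0 (-2.61) and Nr4a1 was 5.63 and 5.93 on day 4 against 8.21 and 8.51 on day 0 (-2.58). The day 0 replicates differed from each other more in Fosb, Fos and Egr1 than in Nr4a1. Ier2 (7.05 and 6.62 on day 4 against 6.95 and 6.83 on day 0) and Egr2 (5.60 and 5.69 on day 4 against 6.31 and 5.67 on day 0) did not pass. Of 12 genes of ATF4 and serine synthesis 6 fell and none rose, with Atf5 at 5.12 and 5.63 on day 4 against 7.31 and 7.45 on day 0 and log2 changes of -2.31 for Trib3 and -0.95 for Atf4. The feeder sums fell in the same libraries, and their part in these falls was not tested. Leaving out each library in turn gave 3, 2, 2 and 3 p53 targets and 0, 2, 0 and 1 immediate early genes lower, and 0, 0, 1 and 3 genes of ATF4 and serine synthesis. For Fosb the log2 change without day 0 replicate 1 or 2 was -5.89 or -7.12. For Fosb the log2 change without day 4 replicate 1 or 2 was -5.82 or -7.18 and for Trib3 -1.70 or -2.92.

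Feeder fibroblast markers fell in 14 of 14 cases, with a median of -5.17. Col1a1, a chain of type I collagen (chromosome 11, 94936224 to 94953042, plus strand), was 5.22 and 4.36 on day 4 against 11.16 and 11.82 on day 0 (log2 change -6.70, SE 0.45, adjusted p = 0.00037). Acta2, smooth muscle actin, was 3.64 and 4.54 on day 4 against 11.59 and 11.89 on day 0 (log2 change -7.65, SE 0.42, adjusted p = 0.000247), and Postn, periostin, was 4.12 and 3.73 on day 4 against 10.17 and 9.98 on day 0 (log2 change -6.15, SE 0.22, adjusted p = 0.000107). All 3 stood above the level of 3 reads on day 4. Caveola genes fell in 6 of 7 cases, with a median of -5.32: Cav1 was 2.64 and 1.34 on day 4 against 9.81 and 10.10 on day 0, and Ehd2 and Ptrf fell by 5.37 and 5.32. Pacsin2, which also serves endocytosis elsewhere, was 8.33 and 8.42 on day 4 against 8.85 and 8.79 on day 0 (adjusted p = 0.111). YAP targets fell in 6 of 10 cases, with a median of -1.63, led by Ankrd1 (0 and 2.14 on day 4 against 7.21 and 7.16 on day 0) and Axl (5.21 and 5.001 on day 4 against 9.49 and 10.16 on day 0), with Ctgf down from 9.65 and 9.59 to 6.39 and 6.65. Amotl1, Ajuba and Tead1 did not pass. Lysosome genes fell in 8 of 14 cases by less, with a median of -0.75 and Ctsb, cathepsin B, at 9.11 and 9.05 on day 4 against 11.04 and 11.38 on day 0. In the same 4 fits the test called 3, 3, 12 and 11 feeder, 4, 4, 6 and 6 caveola and 2, 2, 2 and 4 YAP genes lower, and 4, 1, 1 and 2 lysosome genes. For Cav1 the log2 change without day 4 replicate 1 or 2 was -8.61 or -7.31 and for Ankrd1 -5.04 or -7.18.

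The macrophage and inflammatory lists fell in most members, and the interferon and class I lists in few. The interferon and class I lists had 28.6% and 30.0% called, beside 21.7% of all genes. Both shares were under the 33.4% of genes with a mean of at least 10 scaled reads on either day. Of 8 macrophage markers 7 fell, with a median of -3.98. Csf1r, the growth factor receptor of macrophages, was 0 and 0.86 on day 4 against 4.93 and 5.26 on day 0 (log2 change -4.67, SE 0.58, adjusted p = 0.00275), and Adgre1 (F4/80) was at 5.67 and 5.58 on day 0 and listed at 0 in both day 4 libraries. Cd68 was the exception at 4.33 and 4.88 on day 4 against 5.29 and 5.79 on day 0 (adjusted p = 0.119). Of 14 NF-kB and inflammatory genes 10 fell, with a median of -2.70. The chemokines Ccl2 (7.58 and 7.68 on day 0) and Ccl7 (7.33 and 7.10) were listed at 0 in both day 4 libraries. Icam1, an adhesion molecule, was 4.26 and 4.77 on day 4 against 7.87 and 8.06 on day 0 (log2 change -3.45, SE 0.27, adjusted p = 0.000559), and Il1rl1, the receptor of interleukin-33, was 2.41 and 1.65 on day 4 against 8.38 and 8.57 on day 0 (-6.45). The transcription factors Nfkb1 and Nfkb2 did not pass. Of 14 interferon genes 4 fell and none rose, with a median of -1.41. In 9 of the 14 both day 4 libraries lay below both day 0 libraries, as in 26.9% of all genes. Isg15 was 2.30 and 2.26 on day 4 against 4.64 and 6.45 on day 0. Day 0 replicates were also apart in Ifit1 (3.751 and 6.225) and Usp18 (3.44 and 5.78), which did not pass. In the class I list 7 of 10 genes did not pass, 2 fell and 1 rose. Among them B2m, the shared light chain, was 7.41 and 7.80 on day 4 against 9.14 and 10.02 on day 0 and fell by 1.97, whereas H2-K1, a heavy chain, was 7.45 and 7.68 on day 4 against 5.98 and 5.82 on day 0 and rose by 1.67. H2-K1 has near-identical relatives, so its reads may be split among them. Feeder and macrophage sums fell in these same libraries, and their part was not tested. With each library left out, limma called 2, 1, 3 and 5 macrophage and 5, 4, 5 and 7 inflammatory genes lower. It called 1, 0, 1 and 0 interferon and 1, 1, 0 and 0 class I genes lower, and no class I gene higher. For Isg15 the log2 change without day 0 replicate 1 or 2 was -4.17 or -2.36.

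Genes of the rare 2-cell-like state of stem cell cultures fell in 7 of 8 cases, with a median of -3.35. Zscan4f was 4.61 and 4.79 on day 4 against 9.90 and 10.68 on day 0 (log2 change -5.59, SE 0.29, adjusted p = 0.000207), and Zscan4c was 0.85 and 2.32 on day 4 against 8.31 and 9.38 on day 0 (-7.26). Zfp352 and Tcstv3, at 3.41 and 3.16 and at 3.08 and 3.67 on day 0, were both listed at 0 in both day 4 libraries. The Zscan4 genes are near-identical copies, so the split of reads between them is uncertain. Of 12 germ line genes 3 fell (25.0%, against 21.7% of all genes called), which is near the share over all genes: Tfap2c, a factor of germ cells and trophoblast (0.88 and 0.24 on day 4 against 6.08 and 5.67 on day 0), Ddx4 (3.98 and 5.02 on day 4 against 6.19 and 5.90 on day 0) and Rhox5 (6.15 and 6.14 on day 4 against 7.25 and 7.33 on day 0). Dazl and Prdm1 did not pass, at 4.97 and 3.75 on day 4 against 4.59 and 5.07 on day 0 (Dazl, adjusted p = 0.532) and 6.01 and 5.43 on day 4 against 5.94 and 5.56 on day 0 (Prdm1, adjusted p = 0.986). Across the 4 left-out fits limma called 1, 1, 2 and 3 2-cell-like and 0, 0, 1 and 2 germ line genes lower. For Zscan4c the log2 change without day 4 replicate 1 or 2 was -6.53 or -7.99.

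Xist, the noncoding RNA by which female cells silence an X chromosome (chromosome X, 103460366 to 103483254, minus strand), was 4.22 and 3.78 on day 4 against 9.33 and 9.63 on day 0 (log2 change -5.48, SE 0.30, adjusted p = 0.000229). Both day 0 libraries lay more than 5 above both day 4 libraries on the log2 scale. Genes were counted by chromosome only where their level averaged log2 of 11 or more, so shares over all genes are no measure for them. Among these, genes on the X chromosome had a median change of 0.18, with 86 of 409 higher and 48 lower. Medians on the 19 numbered chromosomes were -0.009 to 0.153. Chromosomes 6 and 14 had larger shares higher than X, at 121 of 536 and 91 of 425, and the other numbered chromosomes had smaller ones. Whether X genes moved as a group was not tested. Feeder markers fell with Xist, and their part was not tested.

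**Figure D4:**
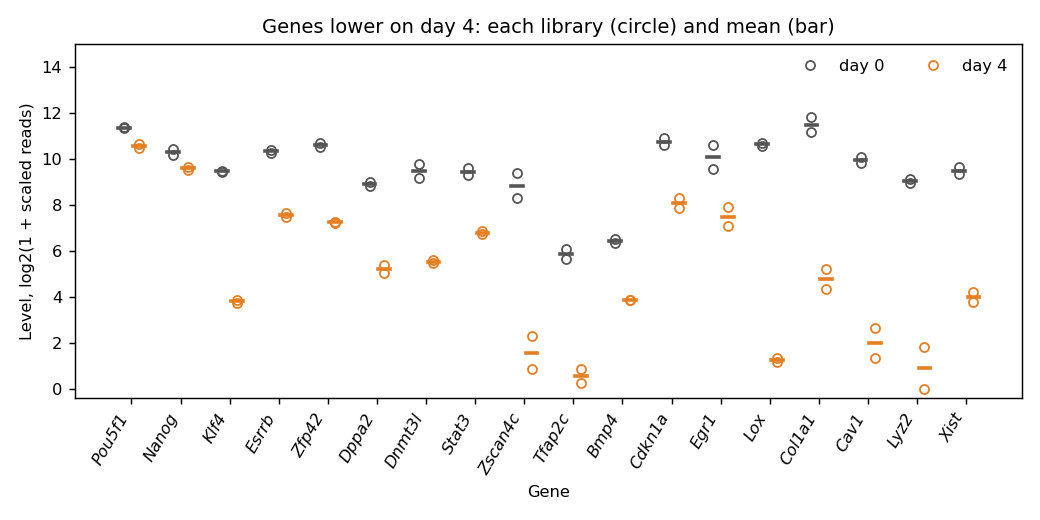
Level of 18 genes (x axis) that were lower on day 4, as log2 of 1 plus scaled reads (y axis), with each library as an open circle (grey day 0, orange day 4) and the mean of each day as a bar. Pou5f1 and Nanog differ by less than 1 between the means, while Lox and Lyz2 go from 8.98 or more to 1.83 or less.

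Lists of other lineages were read in the same way. The share called was 20.0% for lateral plate and cardiac, 16.7% for blood and endothelial and 22.2% for visceral endoderm genes. Over all genes it was 21.7%. Of 10 paraxial mesoderm genes 4 were called lower and 1, Uncx (3.64 and 2.48 on day 4 against 0 and 1.05 on day 0), rose. Foxc1, Foxc2 and Tcf15 fell, whereas Meox2 stood under the level of 3 reads in all 4 libraries and is not read as a difference. Tbx6, the factor that commits cells to this lineage, was 3.29 and 1.81 on day 4 against 1.81 and 2.04 on day 0 (adjusted p = 0.572). Of 10 lateral plate and cardiac genes Tbx5 (0 and 1.13 on day 4 against 3.41 and 3.84 on day 0) and Hand2 fell and none rose, and Nkx2-5 was listed at 0 in both day 4 libraries. Among 12 blood and endothelial genes Runx1 fell (1.20 and 2.58 on day 4 against 6.001 and 6.30 on day 0). Kdr, the VEGF receptor of early mesoderm, was 4.08 and 4.06 on day 4 against 3.94 and 4.39 on day 0 (adjusted p = 0.935). Of 9 visceral endoderm genes Apob (0 and 1.81 on day 4 against 5.06 and 4.31 on day 0) and Trf fell, and Afp, the marker of that tissue, was listed at 0 in both day 4 libraries. None of 8 trophoblast genes passed: their median was -0.02. Among 11 neuromesodermal and caudal genes 4 rose and 3 fell. Nkx1-2, a homeobox gene of the caudal epiblast, was 5.91 and 6.85 on day 4 against 3.93 and 2.96 on day 0 (log2 change 2.94, SE 0.61, adjusted p = 0.0176), Greb1 was 8.49 and 8.15 on day 4 against 3.89 and 3.88 on day 0 (log2 change 4.43, SE 0.19, adjusted p = 0.000141) and Wnt8a rose by 1.73. Cdx1 was 1.83 and 2.14 on day 4 against 3.71 and 3.98 on day 0, Cdx2 was 3.61 and 2.19 on day 4 against 2.63 and 1.71 on day 0 and Cdx4 was 0 and 1.34 on day 4 against 0.40 and 0.51 on day 0, so none of the 3 Cdx genes rose. The blood and endothelial gene Tie1 was also called, with 0 in both day 0 libraries and 2.16 and 2.14 on day 4, of which the first lies under the level of 3 reads (2.298), so it is not read as a difference. The left-out fits called 3, 2, 1 and 1 caudal genes higher and 0, 0, 2 and 3 lower, and 1, 1, 1 and 2 paraxial genes lower. For Runx1 the log2 change without day 4 replicate 1 or 2 was -3.57 or -4.95 and for Apob -2.88 or -4.69.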

How the data were processed

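Polyadenylated RNA of mouse cells was measured in 7 libraries, and 1 deposited table gives their 30590 rows. The authors' numbers appear to be on a natural log scale, as ln(1 + scaled reads). That unit was inferred, since the steps made by single reads were nearest the natural log in 6 of 7 libraries and nearest base 2 in the other, and no source used here states it. Sorted by level, the 7 libraries differ by at most 0.01 down to rank 9896, which is what quantile normalization leaves, so the authors had applied it before deposit. Per the submitters' processing notes, reads were placed on GRCm38. No source used here names the aligner, counter, annotation or strand setting.

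Levels here are those numbers over ln 2, and thus log2. Left out were 103 rows of foreign sequence, 92 of them spike-in RNAs, and 8674 genes at 0 in every library, which left 21813 genes. Days were compared with limma-trend and robust empirical Bayes moderation (limma 3.58.1, R 4.3.3), in 1 fit over all 7 libraries with 1 mean per day, 3 residual degrees of freedom, Benjamini-Hochberg adjustment over all genes and a threshold of 0.05. The script was tested on simulated data. Rough depth came from the level of 3 to 6 reads. That level was itself inferred from the commonest low values, on the inferred natural log scale and after quantile normalization. The error of the depth was not estimated, and the level of 3 reads rests on the same inference. The libraries were not treated as paired in the main fit. Replicate differences correlated at -0.058 between days 0 and 2, -0.066 between days 0 and 4 and 0.222 between days 2 and 4. The column headers share a tag across days within each replicate number, and no source used here says what it means. Whether libraries of the same replicate number belong together is therefore unknown, and a fit with a replicate block is given below. Where the labels' biological replicates were not separate cultures, p-values measure only the spread between these libraries.

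Named genes were first the 12 that rose most and the 12 that fell most among those past the threshold. Their libraries had to be free of overlap and their mean on the higher day 10 scaled reads or above, and predicted, ribosomal protein and histone genes were not eligible. To these were added 19 fixed genes and list members given to describe their list. The comparison and the 47 lists were chosen with earlier results of these data known. Some list members entered the counts and medians but are not reported here by name. Alternatives changed the normalization, the filter, the pseudocount, the samples, the spread model, GC content and the libraries in the fit. Gene positions are from GENCODE M21 (GRCm38), and promoters are from the RefSeq table on GRCm38.p6, matched by symbol. Tables were made with Python 3.11.15 and pandas 2.3.3.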

Additional observations from a re-analysis of the deposited data

Results flagged for a closer look

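Rows of reporter sequence, which no comparison above used, held signal on day 4. The YFP row stood at 3.89 in day 4 replicate 1 and 4.37 in replicate 2, and at or near 0 in both day 0 libraries. The eGFP row stood at 4.50 in day 4 replicate 1 and 2.97 in replicate 2, and at 0.15 and 0 on day 0. The replicate with more of the YFP row had less of the eGFP row, and near-identical reporter sequences can share reads. In the same libraries T stood at 9.02 and 8.67 on day 4 against 6.23 and 4.05 on day 0, so that the reporter rows were near 0 where T was readable.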

How the results depend on the processing

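Every alternative that keeps both libraries of days 0 and 4 gave a count of changed genes within 1.5 times the 4731 reported, from 3308 (no trend in the spread model) to 5611 (levels corrected for GC content, known for 94.68% of genes). Centring each library on its median gave 2433 higher and 2294 lower; with a pseudocount of 10 it was 2392 and 2324, and with the mean-level filter 2476 and 1989. With the replicate block the counts were 2219 higher and 2076 lower, 4126 of the genes called without it were called again, and 5 of the 229 called genes named in the text lost their call. Leaving out 1 library gave 1144 to 3725 changed genes, 395 to 1912 higher and 749 to 1814 lower, the lowest for changed and higher genes without day 0 replicate 2, and 186 higher and 298 lower calls held without any 1 of the 4 libraries. Those fits hold fewer libraries and assume that the lone library of a day varies like the others. Of the 229 named genes called, 157 and 176 lost their call without day 0 replicate 1 and 2, and 137 and 116 without day 4 replicate 1 and 2. No named gene past the threshold changed direction under any alternative that was run. With a pseudocount of 10 the changes of low genes shrink: Noto went from 4.71 to 2.02 and Lox from -9.36 to -7.13, whereas Hmgcs1 went from 2.58 to 2.57. Levels under 1.45 to 2.298, the value of 3 reads, are not read as differences. With 2 libraries a side and mixed cells, a change in cell makeup and a change within cells cannot be told apart.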

Other observations

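In several gene families the called members went largely 1 way. The families were read by symbol and chosen after their values were seen, members of the lists above were left out, and no test was made of a family. Of 35 kinesin genes, the motors of spindle and axon transport, 16 were higher on day 4 and none lower, with a median change of 0.73. Of 22 Eph receptors and ephrins, which guide cells by contact, 11 were higher and 1 lower (median 0.80), and of 12 genes of netrins, slits and their receptors 5 were higher and none lower (1.07). Of 14 Sox genes 5 were higher and none lower. Ciliary and flagellar genes had 13 of 46 higher and 1 lower. In the other direction, 7 of 11 annexins, 5 of 9 S100 genes and 8 of 11 interferon-induced Ifi genes were lower and none higher, 12 of 28 integrins were lower against 3 higher, and 12 of 36 collagen genes were lower against 4 higher.

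In other families few members passed. Of 38 proteasome subunit genes 1 was lower and none higher, of 76 mitochondrial ribosomal protein genes 2 were lower and none higher, and of 13 mitochondrially encoded genes 1 was lower and none higher. Over all genes tested 11.3% were higher and 10.4% lower.

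Of the 25 genes that went from a listed 0 in both libraries to 10 or more scaled reads in both, 4 examples that the comparison above did not name are given here. Vtn, the serum protein vitronectin, stood at 5.32 and 4.60 on day 4 and was at 0 in both day 2 libraries as well. Eya2, a cofactor of placode and muscle, stood at 4.63 and 4.45, also after 0 in both day 2 libraries. Msx3, a homeobox gene of the dorsal neural tube, stood at 6.08 and 5.22. Sst, the hormone somatostatin, stood at 5.28 and 3.56. These 4 were chosen after their values were seen.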
